A study of Danio rerio with 39 samples.

Results

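Crystallins are the proteins that fill the fiber cells of the vertebrate lens, where they are packed at very high concentration and stay for life because mature fibers lose their nuclei. The alpha crystallins are small heat shock proteins that act as chaperones. The beta and gamma crystallins share a fold of Greek key motifs and are the structural bulk of the lens, and fish carry a large group of gamma M genes whose methionine-rich products are found in the hard lens of aquatic animals. A few further proteins bear the name because they were first met as lens proteins in some species although they are enzymes or binding proteins elsewhere, such as zeta (a quinone reductase), lambda (a dehydrogenase) and mu (a thyroid hormone binding protein).

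All probes were taken whose gene name in the array files starts with cry followed by a, b or g, or whose description contains the word crystallin, with the light-sensing cryptochromes left out. The choice found 40 of the 21495 non-control probes. They comprised 4 alpha probes (3 to *cryaa* and 1 to *cryaba*, which the files call *cryab*), 5 beta, 17 gamma M, 4 gamma N, 6 gamma S and 4 enzyme-like probes (2 to zeta and 1 each to mu and lambda). In the red channel 33 of them passed the scanner software's test for signal well above background on at least 20 of the 39 arrays, and 13 did so on every array. The gamma M family held 5 of the 7 that were not, and the other 2 were the gamma S d probe AY738753 and the mu probe TC272714. Probe sequences were not used here, so near-identical gamma M2 copies cannot be told apart, and several members are known only by a transcript or cluster identifier.

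The arrays compared pools of whole AB* zebrafish embryos exposed to TCDD (dioxin, 1 ng/mL) for 1 h at 4 to 5 h post-fertilization with pools exposed to the vehicle DMSO, each collected on day 1, 2, 3, 4 or 5. The title of the series gives the exposure as running over those days, whereas its sample protocol gives the 1 h used here. Every group had 4 arrays, 1 from each of 4 independent experiments, except TCDD on day 2, which had 3. Embryo RNA carried Cy5 (red) on every array and was set against 1 common reference, RNA of the zebrafish embryonic fibroblast line Zf4 in Cy3 (green). Values are log2 ratios of embryo over reference unless the embryo signal is named, which is the log2 red signal relative to the 75th percentile of its array. Because whole embryos were pooled, fewer lens cells and less crystallin RNA per lens cell cannot be told apart.

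Per array, 16329 to 18624 of all probes passed that test and 29 to 93 were saturated in red. Only 1 of the 1560 crystallin values was an outlier spot. A further 99 had both channels at the substitute value that the scanner software writes for a spot without signal, and their log ratio stood at 0. Some other values were 0 as well, such as that of a *crygn1* probe on TCDD day 1, replicate 1.

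Most of the alpha, beta and gamma M probes rose between day 1 and day 2. On the DMSO arrays, 19 of the 40 probes rose in that step and 1 fell (limma, adjusted p under 0.05), whereas 13.5% of all probes rose and 15.5% fell. The rises were those of 3 of 4 alpha, 4 of 5 beta, 10 of 17 gamma M and 2 of 4 gamma N probes, and 0 of 6 gamma S probes. On the TCDD arrays 18 rose and 2 fell, against 12.0% and 12.1% of all probes. The members that rose were shared by both treatments in 17 cases, which was 89.5% of the DMSO list and 94.4% of the TCDD list. The overlap over all probes is not given, so these shares cannot be called particular to crystallins.

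**Figure D1:**
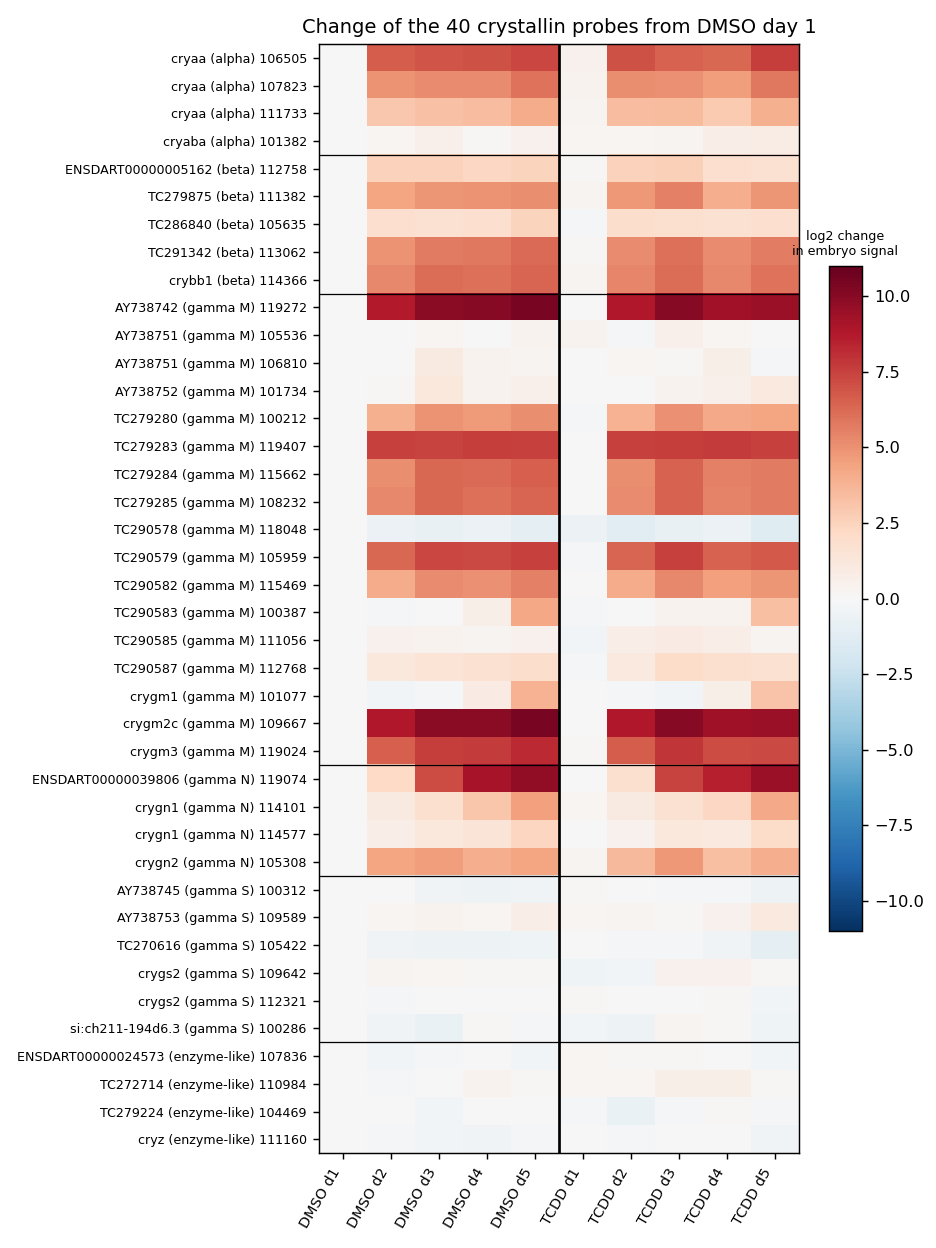
Change in mean embryo signal (log2) of each of the 40 crystallin probes, in rows by family with the last digits of the probe name, from its DMSO day 1 mean to each group in the columns. Most alpha, beta and gamma M rows turn red on day 2, as does *crygn2*, whereas the other gamma N rows deepen over several days. The gamma S and enzyme-like rows stay pale, and levels of different probes are not compared.

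Among the alpha crystallins, *cryaa* encodes alpha A, the lens chaperone. Its brightest probe read 0.00, 3.67, 1.32 and 0.00 on the DMSO arrays of day 1, 9.12, 7.19, 6.44 and 6.46 on day 2, and 7.60, 7.89, 7.64 and 6.95 on day 5. No day 2 array overlapped a day 1 array, and the log2 ratio was higher by 6.05 ± 0.88 (SE; adjusted p = 1.48e-06). The embryo signal passed the background test on only 1 of the 4 arrays of day 1, and with the other arrays taken at background level it was at least 57.7-fold higher on day 2. The reference channel of this probe was above background on only 3 of 39 arrays, so its ratios scattered more than its embryo signals. On day 3, for example, the DMSO ratios were 10.18, 6.44, 6.63 and 6.26 while the embryo signals were 2.68, 1.68, 1.53 and 1.84.

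The remaining *cryaa* probes gave smaller rises in the same step, 4.36 ± 0.74 (adjusted p = 1.96e-05; 1 of 4 day 1 arrays above background, at least 19.9-fold in embryo signal) and 2.48 ± 0.32 (adjusted p = 2.02e-07). All 3 probes therefore moved the same way and disagreed in size. On the TCDD arrays the 3 rises were 5.74 ± 0.95, 4.55 ± 0.80 and 2.46 ± 0.35. The probe for *cryaba*, an alpha B gene, had DMSO ratios of −0.32, −0.07, 0.05 and 0.49 on day 1 and of −0.19, −0.32, 0.36 and 0.43 on day 5. These ranges overlapped. The probe was above background on 0 of 4 arrays of day 1, on 3 of 4 of day 2 and on 4 of 4 of day 5, and the difference of its ratio from day 1 to day 2 was −0.23 ± 0.38 (adjusted p = 0.744).

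**Figure D2:**
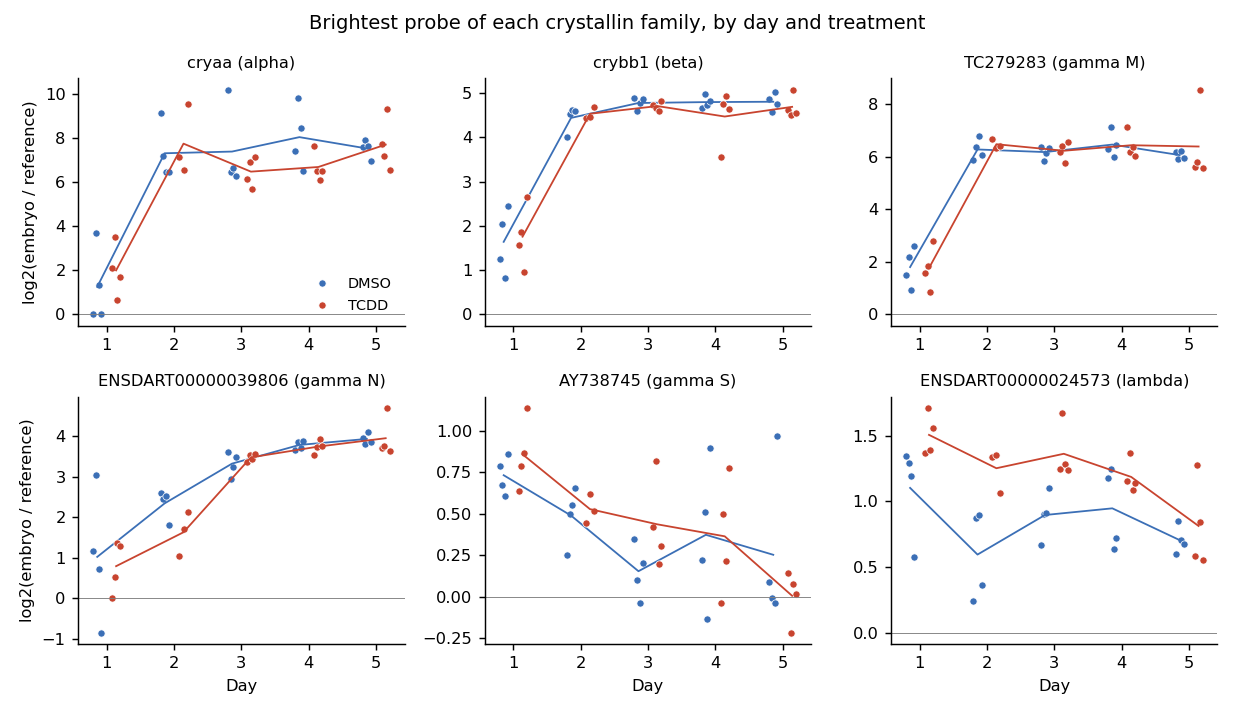
Log2 ratio of embryo over reference (vertical axis) by day (horizontal axis) for the brightest probe of each family, with 1 point per array, DMSO in blue and TCDD in red, and lines through the group means. The alpha, beta, gamma M and gamma N probes are higher from day 2 or 3 on, and the DMSO and TCDD points of a day overlap in most panels.

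The beta crystallins are structural proteins that form dimers and larger oligomers. The brightest, *crybb1* (beta B1), read 1.24, 2.04, 0.82 and 2.46 on the DMSO arrays of day 1, 4.00, 4.54, 4.62 and 4.61 on day 2, and 4.87, 4.58, 5.02 and 4.76 on day 5. As a ratio it rose in the first step (2.80 ± 0.29, adjusted p = 2.60e-09), and the level then stayed within 4.58 to 5.02 on days 3 to 5. On the TCDD arrays it was 1.56, 1.87, 0.95 and 2.65 on day 1 and 4.44, 4.47 and 4.69 on day 2. TC291342, which matches a mouse beta A4 crystallin, went from 0.71, 1.22, 0.51 and 1.09 to 5.10, 5.60, 5.36 and 5.54 in the same step on the DMSO arrays. No arrays of these days overlapped, and the rise was 4.52 ± 0.30 (adjusted p = 2.05e-13).

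A pair of further beta probes match a beta B1 protein. TC279875 rose by 1.86 ± 0.21 (adjusted p = 1.44e-08) and ENSDART00000005162 by 2.23 ± 0.52 (adjusted p = 0.00108), the latter from a day 1 at which 2 of 4 arrays were above background. The fifth, TC286840, matches a frog beta A3 crystallin and was above background on 0 of 4 DMSO arrays on day 1 and on 4 of 4 on day 2. Its embryo signal was at least 2.25-fold higher on day 2, but its ratio did not pass the test (1.44 ± 0.56, adjusted p = 0.0527).

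The gamma M family held both the steepest risers and the latest. *crygm2c* (gamma M2c) read 1.25, 1.53, 0.25 and 0.47 on the DMSO arrays of day 1, 6.91, 7.63, 7.33 and 7.24 on day 2, and 7.99, 7.90, 7.97 and 7.91 on day 5. The first step was a rise of 6.40 ± 0.27 (adjusted p = 5.72e-18), or 84.7-fold. On the TCDD arrays it was 6.42 ± 0.29 (adjusted p = 5.87e-17). The gamma M2b probe AY738742 rose by 6.66 ± 0.27 (adjusted p = 5.36e-18) and *crygm3* (gamma M3) by 6.58 ± 0.52 (adjusted p = 1.07e-11). *crygm3* started below the reference, at −1.24, −1.26, −0.61 and −0.86, and reached 5.14, 6.06, 6.05 and 5.11 on day 2.

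The brightest member of all, TC279283 (matching a carp gamma M2), gave a saturated red signal on 31 of 39 arrays, which is every array from day 2 on. Its DMSO ratios were 1.52, 2.17, 0.93 and 2.59 on day 1 and 5.87, 6.37, 6.81 and 6.08 on day 2. Its embryo signal was at least 175-fold higher on day 2 than on day 1 (adjusted p of the ratio 1.64e-09), and from then on no difference could be measured in that channel. Of the other gamma M2 probes, TC290579 rose by 6.56 ± 0.51, TC279284 by 4.73 ± 0.40, TC279280 by 3.68 ± 0.39 and TC290582 by 3.53 ± 0.43 (above background on 2 of 4 day 1 arrays). TC279285 and TC290587 were above background on no DMSO array of day 1, and their embryo signals were at least 20.0-fold (adjusted p of the ratio 6.15e-08) and at least 1.38-fold (adjusted p = 0.00159) higher on day 2.

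Not every gamma M2 probe rose. TC290578, above background on 36 arrays, changed by −0.47 ± 0.31 in the first step (adjusted p = 0.295), and TC290585, above background on 33, by 0.15 ± 0.62 (adjusted p = 0.92). The gamma M6 and gamma M7 probes AY738751 (2 probes) and AY738752 were above background on 1 to 3 arrays each, so no change could be measured.

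The gamma M1 probes were the latest, with their called rises between day 4 and day 5. TC290583, which matches part of a carp gamma M1, was above background on all 8 arrays of day 5 and on no other array. Its embryo signal on the DMSO arrays of day 5 was −0.14, −1.23, −1.40 and −0.59, at least 10.6-fold higher than on day 4 (adjusted p of the ratio 3.68e-04). With TCDD it was −0.87, −1.45, −2.35 and −2.64, at least 7.10-fold higher than on day 4 (adjusted p of the ratio 0.00404). The reference of this probe was at the substitute value on 36 arrays. *crygm1* (gamma M1), named from a different transcript, was above background on 1, 0, 0, 3 and 4 of the 4 DMSO arrays of days 1 to 5 and on 1, 1, 0, 2 and 4 of the TCDD arrays. Its embryo signal with DMSO was at least 1.47-fold higher on day 4 than on day 3, without a call in the ratio (adjusted p = 0.937). It had DMSO ratios of −1.25, −0.34, 0.75 and 1.13 on day 4 and 1.36, 3.17, 2.97 and 3.16 on day 5.

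That step was a rise of 2.60 ± 0.64 (adjusted p = 0.0117), and with TCDD of 2.44 (adjusted p = 0.0192). These 2 probes were the only members called from day 4 to day 5 in either treatment, where 1.93% of all probes rose with DMSO and 2.48% with TCDD. The calls rest on few arrays. Without replicate 2 or 4 the DMSO rise of *crygm1* had adjusted p = 0.165 and 0.0746. With TCDD its adjusted p was 0.122, 0.266 and 0.0552 without replicates 1, 2 and 4, and that of TC290583 was 0.114 and 0.125 without replicates 1 and 2.

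Gamma N crystallins are thought to stand between the beta and gamma families, and all but *crygn2* built up over several days. The brightest, ENSDART00000039806, matches a mouse gamma N protein, and its DMSO embryo signals were −5.28, −3.97, −4.93 and −5.75 on day 1, −2.48, −2.82, −3.22 and −2.53 on day 2, 3.13, 0.68, 2.39 and 2.67 on day 3, 3.93, 4.03, 4.00 and 4.44 on day 4, and 4.70, 4.76, 4.80 and 5.00 on day 5. No 2 days overlapped. The probe was above background on 0 of 4 arrays of day 1, and its embryo signal was at least 3.09-fold higher on day 2. The day 2 rise of its ratio had adjusted p = 0.0177, and 0.0985, 0.154 and 0.148 without replicate 1, 3 or 4. In embryo signal alone, all 4 gamma N probes were called higher on day 2 with DMSO, among 22 of the 40 members. The share of all probes called in that channel is not given. For ENSDART00000039806 the step from day 2 to day 3 was 4.98 ± 0.41 in that channel (adjusted p = 4.31e-11). The ratio showed less of it because the reference signal rose as well, and its day 3 step was 0.98 (adjusted p = 0.145). With TCDD the same step was 1.85 as a ratio (adjusted p = 0.00516) and 5.62 in embryo signal (adjusted p = 1.59e-11). The ratio call with TCDD had adjusted p = 0.0632 without replicate 3.

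The brighter *crygn1* probe (gamma N1) read −0.84, −0.08, −0.91 and −0.15 on day 1, 0.86, 0.88, 1.23 and 0.54 on day 3, and 2.75, 2.25, 2.15 and 2.47 on day 5 of the DMSO arrays. Its level rose from day 2 to day 3 by 1.23 (adjusted p = 0.0102, in embryo signal by 0.79 with adjusted p = 0.104), which together with TC279284 (gamma M2, 1.34, adjusted p = 0.0237) made 2 members called higher in that step against 6.27% of all probes. Neither call held when replicate 1 or 4 was left out, nor that of TC279284 without replicate 3 (adjusted p = 0.0535 to 0.155). With TCDD, ENSDART00000039806 was the 1 member called from day 2 to day 3, against 6.92% of all probes higher. In embryo signal *crygn1* also rose from day 3 to day 4 (1.31 ± 0.30, adjusted p = 0.00284) and from day 4 to day 5 (1.49 ± 0.30, adjusted p = 0.00268) with DMSO. A second *crygn1* probe was dimmer, above background on 23 arrays against 34 for the brighter one. The *crygn2* probe was noisier and had its reference at the substitute value on 30 arrays. Its DMSO rise on day 2 (4.55 ± 1.38, adjusted p = 0.011) had adjusted p = 0.0502 to 0.113 when replicate 1, 2 or 3 was left out. The *crygn2* embryo signals with DMSO were −3.33, −3.03, −4.93 and −3.18 on day 1 and 1.36, 0.96, 0.48 and −0.07 on day 2. On day 5 they were 0.12, 0.69, 0.09 and 2.13, which overlapped those of day 2.

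No crystallin ratio was called from day 3 to day 4 in either treatment, where 12.9% (DMSO) and 12.0% (TCDD) of all probes changed. At an unadjusted p under 0.01 there were 0 and 1 of the 40. In embryo signal alone, 2 members, both beta, were lower on day 4 than on day 3 with TCDD (5.02% of all probes were), TC279875 (−1.53 ± 0.36, adjusted p = 0.00293) and ENSDART00000005162 (−0.83 ± 0.24, adjusted p = 0.0228). Replicate 1 of TCDD on day 4 was low for both, at −0.10 against 2.47 to 2.62 on the other arrays for TC279875 and at −3.49 against −2.85 to −2.33 for ENSDART00000005162. Without it the differences were −0.88 (adjusted p = 0.0171) and −0.58 (adjusted p = 0.171). The second call was also lost without replicate 2 or 4 (adjusted p = 0.0549 and 0.151).

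The gamma S probes showed no called change between neighbouring days or treatments. The brightest, AY738745 (gamma S a), read 0.79, 0.68, 0.61 and 0.86 on the DMSO arrays of day 1 and 0.09, −0.01, −0.04 and 0.97 on day 5, so that 3 of 4 arrays of day 5 lay below those of day 1. The step from day 1 to day 2 was −0.24 ± 0.20 (adjusted p = 0.42). The 2 *crygs2* probes changed by 0.03 ± 0.38 and 0.02 ± 0.24 in that step. All but AY738753 of the 6 were well above background on at least 32 arrays.

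The zeta and lambda probes were above background on every array. The lambda probe ENSDART00000024573 read 1.34, 1.30, 1.20 and 0.58 on the DMSO arrays of day 1, 0.24, 0.88, 0.90 and 0.36 on day 2, and 0.60, 0.85, 0.70 and 0.67 on day 5. It was the 1 member that fell from day 1 to day 2 with DMSO (−0.51 ± 0.17, adjusted p = 0.026), and the adjusted p was 0.325 without replicate 1 and 0.0643 without replicate 3. With TCDD both zeta probes fell in that step, *cryz* by 0.45 (adjusted p = 0.00713) and TC279224 by 0.57 (adjusted p = 0.0278). These calls were likewise lost without replicate 4 for *cryz* (adjusted p = 0.104) and without replicate 1, 2 or 3 for TC279224 (adjusted p = 0.184, 0.243 and 0.0551). In embryo signal none of the 3 falls was called, with adjusted p of 0.269 for the lambda probe, 0.559 for *cryz* and 0.172 for TC279224. With normexp and loess the adjusted p were 0.0839, 0.112 and 0.565, and the difference of TC279224 was −0.07. The mu probe was above background on 1 array.

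Part of the rise was hidden in the ratios, because the reference signal rose too. From day 1 to day 5 of the DMSO arrays the reference channel rose by more than 1 on the log2 scale for 9 of the 40 members, compared with 2.05% of all probes, although the same Zf4 RNA was used throughout. Among probes above background in that channel on all 39 arrays the counts were 4 of 14 members and 0.442% of 13348 probes. For *crybb1* the DMSO reference signals were −2.56, −2.66, −3.06 and −2.75 on day 1 and 0.51, 0.51, 0.21 and 0.59 on day 5, with no overlap. Its embryo signal rose by 6.39 between those days, its reference signal by 3.21 and its ratio by 3.17. For *crygm2c* the 3 rises were 10.45, 3.37 and 7.07, for ENSDART00000039806 they were 9.80, 6.87 and 2.92, and for TC279284 they were 6.55, 0.29 and 6.25. The embryo signals of these probes rose at the same time, and what moved the reference signal was not tested.

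**Figure D3:**
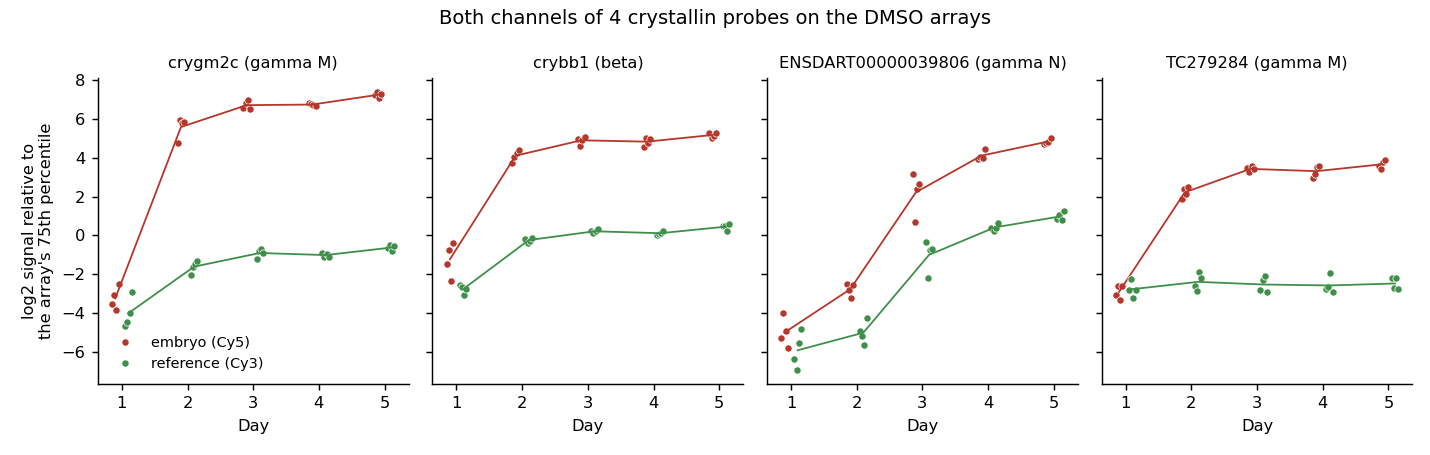
Embryo signal (red points) and reference signal (green points) of 4 crystallin probes on the DMSO arrays, as log2 relative to the 75th percentile of the array (vertical axis) by day (horizontal axis), with lines through the means of 4 arrays. The reference signal climbs together with the embryo signal for *crygm2c*, *crybb1* and ENSDART00000039806, and for TC279284 it stays nearly level (a rise of 0.29 against 6.55).

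No crystallin probe was called between TCDD and DMSO on any day. Of the 40 probes, 0 differed between TCDD and DMSO on days 1, 2, 3, 4 and 5 at an adjusted p under 0.05 (limma), while 0.014%, 0.703%, 2.75%, 0.893% and 6.27% of all probes did. At an unadjusted p under 0.01 the counts were 0, 2, 1, 0 and 0 of 40, against 0.717%, 3.3%, 6.52%, 3.38% and 9.24% of all probes. The interaction of day and treatment was called for 0 members and for 0.0931% of all probes, and at an unadjusted p under 0.01 for 0 members and 1.87% of all probes.

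The smallest p-values on days 2 and 3 belonged to 3 members whose ratio had no called rise on day 2 with DMSO. Of these, *crygn1* was called higher in embryo signal in that step. On day 2 the lambda probe read 1.34, 1.36 and 1.06 with TCDD and 0.24, 0.88, 0.90 and 0.36 with DMSO. The groups did not overlap, and the difference was 0.66 ± 0.19 (adjusted p = 0.106), higher in 3 of 3 pairs. With the experiment as a block it was 0.63 and was called (adjusted p = 0.0258). On day 3 its difference was 0.47 ± 0.17 (adjusted p = 0.165). On day 2 the brighter *crygn1* probe read 0.12, 0.52 and 1.46 with TCDD and −0.30, 0.03, 0.18 and −1.32 with DMSO (difference 1.05 ± 0.36, adjusted p = 0.234). Replicate 4 held the highest TCDD and the lowest DMSO value, and without it the difference was 0.35. On day 3 the probe si:ch211-194d6.3 was next. It counts as gamma S only because its description gives an EST similar to beta crystallin S, while its file name is now a synonym of another gene. It read −0.19, −0.38, 0.09 and −0.52 with TCDD and −0.40, −0.99, −0.52 and −1.22 with DMSO (difference 0.53 ± 0.17, adjusted p = 0.0997). Its difference was called with the scan batch in the model (0.59, adjusted p = 0.0435).

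The members lay mostly below the control values on days 4 and 5. The median difference over the 40 probes was 0.04, 0.04, −0.01, −0.29 and −0.18 on days 1 to 5, while the median of all probes lay between −0.00149 and 0.0306. The number lower with TCDD was 15, 17, 21, 32 and 26 of 40, and the share of all probes lower was 49.0%, 47.7%, 44.3%, 46.0% and 50.4%. On day 4 all 5 beta (median −0.53), 14 of 17 gamma M (median −0.37) and all 4 gamma N probes (median −0.42) were lower, and 4 of 6 gamma S probes (median −0.03). The largest differences at an unadjusted p under 0.05 were in TC286840 (−1.43 ± 0.56), TC279284 (−1.05 ± 0.40), TC290582 (−1.03 ± 0.43) and TC279280 (−0.94 ± 0.39), with adjusted p from 0.347 to 0.412.

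**Figure D4:**
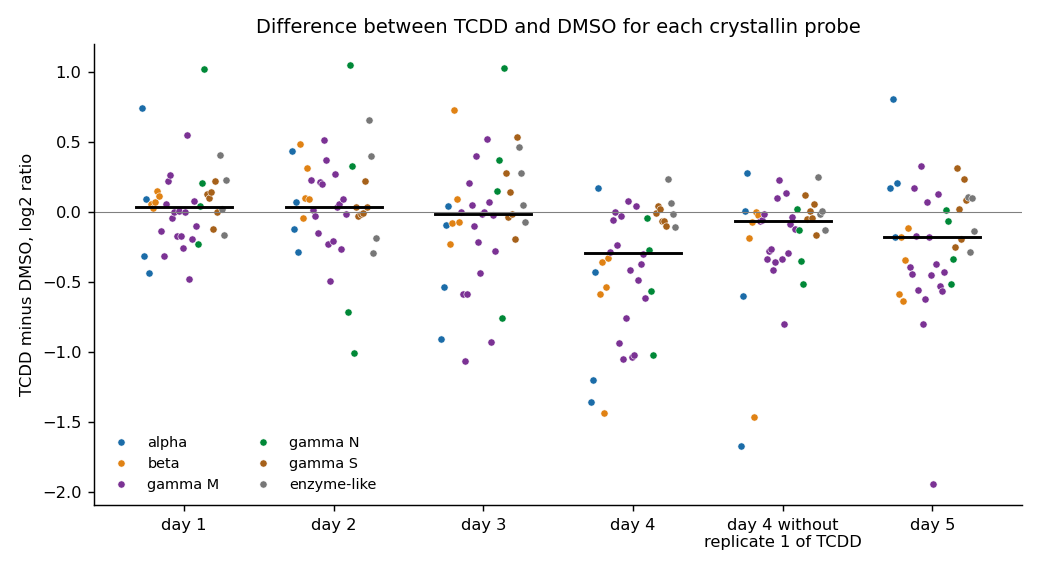
Difference between the TCDD and DMSO means (log2 ratio, vertical axis) for each of the 40 crystallin probes, coloured by family, on each day and on day 4 without replicate 1 of TCDD, with the median as a black bar. The medians are 0.04, 0.04, −0.01, −0.29, −0.07 and −0.18 from left to right.

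A single array carried most of the shift on day 4. The mean over the 30 alpha, beta and gamma probes above background on at least 20 arrays was 2.17 on replicate 1 of TCDD on day 4, and 3.04, 3.19 and 3.29 on the other TCDD arrays of that day. The DMSO arrays of day 4 lay between 3.28 and 3.54. Replicate 1 held the lowest TCDD value of day 4 for 21 of these 30 probes (70.0%), compared with 26.5% of the 17392 probes above background on at least 20 arrays. For *crygm3*, for example, the TCDD ratios of day 4 were 4.29, 6.50, 6.17 and 6.13, and for TC291342 they were 3.79, 5.93, 5.90 and 5.95.

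Without that array the median difference of day 4 was −0.07, with 28 of 40 probes lower, and the differences of TC279284, TC290582 and TC279280 were −0.41, −0.33 and −0.28, each with an adjusted p of 1. That of TC286840 was −1.46 (adjusted p = 0.68). The largest difference without that array was in the brightest *cryaa* probe, −1.67 ± 0.95 (adjusted p = 0.965). Its ratios on day 4 were 7.62, 6.50, 6.10 and 6.49 with TCDD and 7.41, 9.81, 8.43 and 6.48 with DMSO. Within the pairs of day 4 the median differences were −0.98, −0.05, −0.01 and −0.11 for replicates 1 to 4. Within scan batches they were −0.33 (3 arrays against 3) and −0.11 (1 against 1). On that array 18032 probes were above background, and its median correlation with its group was 0.941.

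Other lists were low on the same array. The mean of 14 lens membrane and cytoskeleton probes (the lens water channel *mipa*, the beaded filament gene *bfsp2*, *lim2.3* and others) was 2.85 there and 3.85 to 3.97 on the other TCDD arrays of day 4, and 11 of the 14 were lowest there. The mean of 37 fast muscle probes was 4.83 against 5.15 to 5.23, with 24 lowest. The mean of 21 lens transcription factor probes was 1.27 against 1.36 to 1.61, with 8 lowest (38.1%). The eye lists differed less, with photoreceptor probes at 4.63 against 4.73 to 4.87 and retinal probes at 3.41 against 3.21 to 3.53. The part of these lists in the crystallin values was not tested.

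**Figure D5:**
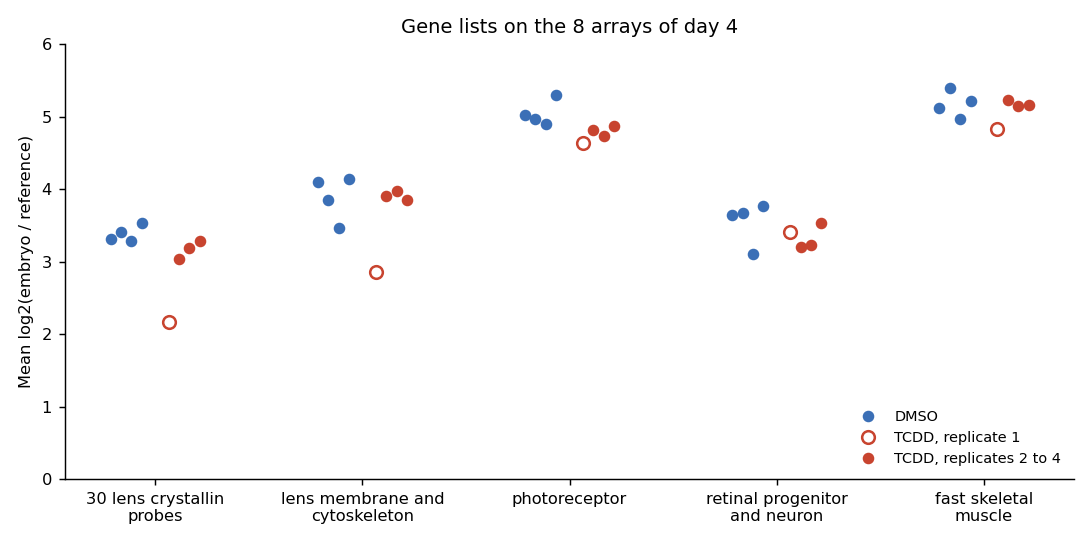
Mean log2 ratio (vertical axis) of 5 gene lists on the 8 arrays of day 4, with 1 point per array, DMSO in blue and TCDD in red, and replicate 1 of TCDD as an open circle. That array lies lowest for the crystallins (2.17) and for the lens membrane (2.85), photoreceptor (4.63) and fast muscle (4.83) lists, but not for the retinal list. Levels of different lists are not compared.

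On day 5 the median difference of −0.18 was again −0.18, with 27 of 40 lower, without replicate 3 of TCDD, the array with the lowest correlation with its group among all 39 (0.879). Without replicate 4 of both treatments it was −0.08. It was −0.15, 0.00, −0.08 and −0.39 within the pairs of replicates 1 to 4, and −0.06 (2 TCDD arrays against 3) and −0.28 (2 against 1) within scan batches. In embryo signal the day 5 median was −0.33, with 33 of 40 lower and 0 called, against −0.03 over all probes. Within the pairs it was −0.66, −0.10, −0.22 and −0.60, with 35, 26, 26 and 30 of 40 lower, while all probes had medians of −0.30, −0.01, 0.11 and 0.09. The median of −0.30 means that most probes were lower in the pair of replicate 1. Shares of all probes lower or called are not given for these embryo counts. On day 4 the embryo medians within the pairs were −0.79, −0.06, −0.00104 and −0.00996.

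The largest ratio difference of day 5 was in the late gamma M1 probe TC290583, whose ratios were 6.48, 5.41, 0.99 and 4.63 with TCDD and 7.43, 6.03, 5.06 and 6.76 with DMSO. It was lower in 4 of 4 pairs (−1.94 ± 0.80, adjusted p = 0.172), but replicate 3 of TCDD carried much of the size. On that array the reference signal was −3.12, against −7.23 to −6.77 on the other TCDD arrays of day 5, and without it the difference was −0.81. *crygm2c* read 7.77, 7.79, 6.56 and 7.41 with TCDD and 7.99, 7.90, 7.97 and 7.91 with DMSO, without overlap (−0.56 ± 0.27, adjusted p = 0.258). Without the same array its difference was −0.29.

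In the current zebrafish annotation (GRCz12tu, used for names and gene order only), 34 crystallin genes follow one another on 1 chromosome with at most 1 other gene between neighbours. The row holds the gamma M genes from *crygm7*, *crygm6*, *crygm1* and *crygm2c* through the gamma M2 copies to *crygm5* and *crygm3*, with *crygs4* and *crygs3* at its end. Members of this row differed in time, since *crygm2c* rose by 6.40 on day 2 with DMSO whereas *crygm1*, which stands 1 place before it, was above background on 0 of 4 DMSO arrays of that day and had its called rise on day 5. *crybb1* lies beside *cryba4*, which the probe names did not include.

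A further 17 probes to 15 crystallin genes, which carry clone or locus names in the files, were found by their current symbols. Of these genes 14 have no member of that name, and the other is *crygn1*. They are described apart because they were added after the values of the members were known. In both treatments 12 of the 17 rose from day 1 to day 2, against 13.5% of all probes with DMSO and 12.0% with TCDD. With DMSO the rise was 5.54 for *crygm2d8*, 5.74 for *crygm2d18*, 3.40 ± 0.50 for *cryba2a* (adjusted p = 1.95e-06), 3.18 ± 0.43 for *cryba1b* (adjusted p = 1.48e-06) and 1.73 for *crygs3*, so 1 gamma S gene did rise. On day 4 their median difference between TCDD and DMSO was −0.55, with 14 of 17 lower and 0 called, and without replicate 1 of TCDD it was −0.02, with 11 lower. The 1 call between treatments, *crygm4* on day 3, came from a probe that was above background on no array.

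Among the other lens genes, 10 of the 18 lens membrane and cytoskeleton probes (12 genes) rose from day 1 to day 2 with DMSO and 2 fell, where 13.5% of all probes rose and 15.5% fell. The largest rises were those of *grifin*, a lens galectin (6.29 ± 0.77, adjusted p = 7.61e-08), and *lctla* (4.44 ± 0.61, adjusted p = 6.72e-07). Of the 21 probes to 15 genes of the lens transcription factor list 8 rose and 1 fell. The largest rises were those of *six7* (2.26 ± 0.32) and *meis2a* (1.27 ± 0.09). Whole embryos were pooled, so these rises cannot be assigned to the lens. *six7* rose again from day 4 to day 5 with DMSO (1.09 ± 0.32, adjusted p = 0.0470), a step with 0 calls in the lens membrane list. The photoreceptor list rose mainly on day 3, with 5 of 27 probes higher on day 2 and 19 on day 3 (6.27% of all probes in the later step). Of 38 fast muscle probes 29 rose on day 2, again against 13.5%. Of the 8 probes (4 genes) of the small heat shock protein list 5 fell, against 15.5% of all probes, and the 2 *hspb1* probes fell by 2.58 and 2.52. Small heat shock proteins are relatives of the alpha crystallins, but the list also holds *hspbap1*, which is not one of them.

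Between treatments 0.563%, 1.68%, 0.684% and 2.63% of all probes were lower with TCDD on days 2 to 5. The lens membrane list had 0 called probes on every day. The lens transcription factors had 2 of 21 probes lower on day 5, a *pax6b* probe (−0.58 ± 0.16, adjusted p = 0.0202) and a *pax6a* probe (−0.44 ± 0.11, adjusted p = 0.0167). Both genes are needed for eye formation, and their other probes were not called. The photoreceptor list had 1, 2, 1 and 2 of 27 lower on days 2 to 5. The opsin probe *opn1mw4* was among them on each of these days (−0.43 on day 5, adjusted p = 8.51e-04). Its DMSO means were only −0.08, 0.13, 0.14 and 0.25 on days 2 to 5, near the reference level, whereas *opn1sw1* averaged 6.19 on DMSO day 3. The others were *rcvrn2* on day 3 (−2.87 ± 0.82, adjusted p = 0.049986) and a *pde6a* probe on day 5 (−0.91, adjusted p = 0.0189). Another *pde6a* probe was not called. The retinal carrier *rlbp1b* was the 1 of 21 retinal probes lower on day 5 (−0.94 ± 0.21, adjusted p = 0.00416). Of the 8 probes of the small heat shock protein list 2 were higher on day 5 and 1 lower, where 3.64% of all probes were higher. The 2 were the *hspb1* probes, by 0.65 and 0.63 (adjusted p = 8.51e-04 and 0.00291).

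The named probes outside the members whose ratio followed the mean of the 30 lens probes most closely over the 39 arrays were ranked by Pearson's r, as a description. They were *crygm2d8* (0.987), *kidins220b* (0.980), the troponin gene *tnni2b.2* (0.976 and 0.975 for its 2 probes), *ckmt2b* (0.974), *tnnt3b* (0.972), *ndrg2* (0.970), zgc:77058 (0.969), *ampd1* (0.968) and *bfsp2* (0.967). The arrays share a reference and fall into an early group of day 1 and a later one, so any gene with a step between those days scores highly.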

How the data were processed

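The authors hybridized embryo RNA (Cy5) against Zf4 RNA (Cy3) and read the arrays with Agilent Feature Extraction 8.1.1. The deposited intensity of each spot is given per channel, raw and as processed by background subtraction and LOWESS dye normalization, and the deposited log10 ratio is red over green after these steps. It was 0 where both channels held substitute values, and on some other spots. Arrays were not normalized against each other. The series table holds the same ratios, which was checked on 880425 values.

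Log10 ratios were converted to log2, outlier spots were set to missing, and all 39 arrays entered 1 linear model with a mean for each group of treatment and day (limma 3.58.1, R 4.3.3), after tests on simulated data. P-values were adjusted by Benjamini and Hochberg over all probes, and a call is an adjusted p under 0.05, beside counts at the unadjusted 0.01 of the study's methods. Errors after ± are standard errors. "At least" folds compare embryo signals rebuilt from the ratios and the mean log intensity of both channels, the latter quantile normalized between arrays. Each array of the dim group that was not above background was taken at the higher of its own and the background level. Tables were handled in Python 3.11.15 with pandas 2.3.3 and numpy 2.4.6. The annotation names 14 of the 40 members.

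Per-array values are given for the brightest probe of each family, a rule that also named any member called between treatments, of which there were none. Other members with values per array were named after their values were seen. For the marker lists, named differences were taken from the 2 largest called ones of each comparison, and not all of these are printed. Members, lists and this rule were chosen with earlier results of these data known.

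Replicate numbers mark the independent experiment and so pair the arrays. Deviations from group means had a median r of 0.234 over 19 same-numbered pairs of TCDD and DMSO arrays (−0.136 to 0.400, 14 over 0.1) and of −0.0675 over 57 others, and a block for the experiment was among the alternatives. The files fall into 3 scan batches of 4, 24 and 11 arrays. The other alternatives were the embryo channel alone, normexp with loess, the scan batch, array weights, outlier spots kept, a filter on dim probes, an unmoderated F-test, and each replicate left out. Leaving out replicate 1 of TCDD on day 4 or replicate 3 of TCDD on day 5, and arrays in the embryo channel, was added after seeing the data.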

Additional observations from a re-analysis of the deposited data

Results flagged for a closer look

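In 14 of 104 sets of 4 arrays examined (a probe, or the mean of the 30 lens probes, in 1 group), 1 array lay farther from the others than Dixon's 95% critical value (0.829) allows. No rate expected by chance is set beside this count. Some of the probes were chosen after their values were seen, the same arrays recur across probes, and some ratios were 0 where signal was lacking. All values are log2 ratios, and no cause was tested.

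In the lens families the brightest *cryaa* probe read 10.18 on DMSO day 3, replicate 1 (others 6.26 to 6.63). *crybb1* read 4.00 on DMSO day 2, replicate 1 (others 4.54 to 4.62). The mean of the 30 lens probes was 0.60 on DMSO day 1, replicate 2 (others 0.05 to 0.11).

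*crygm3* stood apart in 2 groups, at −0.78 on TCDD day 1, replicate 3 (others −1.23 to −1.15), and at 4.29 on TCDD day 4, replicate 1 (others 6.13 to 6.50). The latter is the array on which 21 of 30 lens probes were lowest of their group.

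Replicate 3 of TCDD day 5 gave the highest value of the saturated gamma M2 probe TC279283 (8.56, others 5.59 to 5.82) and of the gamma N probe ENSDART00000039806 (4.70, others 3.64 to 3.75).

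The late gamma M1 probes were set apart by values of 0 in the other arrays, where the embryo signal was not above background. TC290583 read −1.09 on DMSO day 2, replicate 1, and 2.71 on TCDD day 4, replicate 4, and *crygm1* read −1.39 on DMSO day 2, replicate 1. On DMSO day 5, *crygm1* read 1.36 in replicate 1 (others 2.97 to 3.17).

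Among the rest, *crygn1* read 2.52 on TCDD day 3, replicate 3 (others 0.72 to 0.93). The gamma S probe AY738745 read 0.97 on DMSO day 5, replicate 4 (others −0.04 to 0.09). The lambda probe ENSDART00000024573 read 1.68 on TCDD day 3, replicate 2 (others 1.24 to 1.29).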

How the results depend on the processing

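The total counts of members called on day 2 against day 1 stayed within 1.5 times of the reported value under every alternative run (18 to 19 with a replicate left out in both treatments), with 17 to 22 rises with DMSO and 17 to 21 with TCDD. The falls varied from 0 to 2 and from 0 to 3, and were 0 in the embryo channel and with normexp and loess. No named difference changed sign. The block for the experiment (the replicate pairing) gave 21 called on day 2 with DMSO and 20 with TCDD, and between treatments 1 on day 2 (the lambda probe) in place of 0, as did array weights (1). The scan batch as a term gave 1 on day 3. The later steps depended more on the processing, and the cause was not tested. Shares of all probes called under each alternative are not given. Whether these counts moved more than those of other probes therefore cannot be told. For DMSO day 3 against day 2 (2 called), the embryo channel gave 4, normexp with loess 6, and leaving out a replicate 0 to 2. For DMSO day 4 against day 3 (0 called), array weights gave 1, the embryo channel 2, normexp with loess 2, and leaving out a replicate 0 to 1. For DMSO day 5 against day 4 (2 called), leaving out a replicate gave 1 to 3. For TCDD day 3 against day 2 (1 called), array weights gave 4, the embryo channel 7, normexp with loess 5, the block, the scan batch and omission of replicate 1 of TCDD day 4 each 2, and leaving out a replicate 0 to 2. For TCDD day 4 against day 3 (0 called), the embryo channel gave 2, normexp with loess 3, the filter on dim probes 1, the block 2, the scan batch 1, and leaving out a replicate 0 to 1. For TCDD day 5 against day 4 (2 called), the embryo channel gave 4, normexp with loess 6, omission of replicate 1 of TCDD day 4 gave 1, that of replicate 3 of TCDD day 5 gave 4, and leaving out a replicate 0 to 2. The median difference between treatments on day 3 was 0.16 in the embryo channel in place of −0.01, and with normexp and loess the medians of days 4 and 5 were −0.11 and −0.06. Saturation hides changes of TC279283 after day 2, and signals near background limit the gamma M1, M6 and M7 probes.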
